A study of Mus musculus with 6 samples.

Results

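Expression of 10 genes of major histocompatibility complex (MHC) class I presentation and the immunoproteasome was examined in BV-2 cells, a mouse microglial line immortalised with a retrovirus carrying raf and myc oncogenes. The genes were taken as a fixed list of names, H2-K1, B2m, Tap1, Tap2, Tapbp, Psmb8, Psmb9, Psmb10, Psme1 and Psme2, and each was read from its row of the deposited log2 value table that names it alone, or the one with the highest mean where there were several. All 10 had such a row, of 22180 genes with a row of their own. All 6 arrays were of BV-2 cells plated in medium with 2.5% serum: 3 control arrays, labelled resting, and 3 arrays of cells given lipopolysaccharide (LPS O111:B4, a bacterial cell wall component) at 1 µg/mL for 24 h. When the control cells were harvested is not given in the sources used here. Nothing in the labels ties the replicates to separate cultures, so the spread that the p-values rest on may be technical. BV-2 is one established line, and its response may differ from that of microglia in tissue.

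Class I molecules carry peptides from the cell's own proteins to its surface, where CD8+ T cells read them. The peptides are cut by the proteasome, pumped into the endoplasmic reticulum by the TAP transporter and fitted into a heavy chain paired with beta-2-microglobulin. In microglia, as in other macrophages, interferons are known inducers of this machinery and exchange the catalytic subunits of the standard proteasome for those of the immunoproteasome.

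The microglia and macrophage markers used to check identity were all above background, taken here as 3.09 on the log2 scale, the 95th percentile of 1438 rows for chemosensory (olfactory, taste and vomeronasal) receptors. Of 30 markers of dendritic, T, NK, B, glial, neuronal and fibroblast cells, 27 had a row and 22 of these lay below that level; the other 5 were Zbtb46, Cd209a, Ncr1, Rbfox3 and Col1a2. The summed log2 level of the 27 ranged from 74.1 to 77.1 in control and from 73.3 to 76.4 in LPS arrays. Control replicate 2 stood apart from the other controls, and LPS replicate 3 from the other LPS arrays over interferon-stimulated genes. Over the 10885 genes above background, control replicate 2 had a median difference of -0.36 log2 units from the mean of the other controls, and it was the lowest control in 71.3% of them. Over the same genes, LPS replicates 1 to 3 had median differences of -0.19, 0.11 and 0.08 from the other LPS arrays. LPS replicate 3 was thus not the most deviant there. Its median difference was 1.52 over 11 interferon-stimulated genes, in all of which it was the highest LPS array. Fold changes of the members were also computed without control replicate 2 and LPS replicate 3, called the deviating arrays below. LPS replicate 3 was picked by values of these same data, so smaller errors or more calls without it are no separate support.

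Stretches upstream of 4 start sites are shown because their genes set out the contrasts described below: H2-K1 and B2m code for the partners of one molecule, Tapbp had the largest fold change, and Tap1 and Psmb9 are neighbours that point away from each other and share the stretch between their starts. The letters are from RefSeq (GRCm38.p6), each read 5′ to 3′ on the strand of the named gene (minus for H2-K1, plus for B2m, Tapbp and Tap1), and end 1 base before the start. H2-K1 lies at chr17:34000348-34000597, B2m at chr2:122147437-122147686, Tapbp at chr17:33919228-33919477 and the Tap1 to Psmb9 stretch at chr17:34187331-34187555. These are coordinates of the sequence table, since no source used here gives the array's genome build. Capitals mark matches on either strand to any of the 5 patterns named after the sequences.
H2-K1: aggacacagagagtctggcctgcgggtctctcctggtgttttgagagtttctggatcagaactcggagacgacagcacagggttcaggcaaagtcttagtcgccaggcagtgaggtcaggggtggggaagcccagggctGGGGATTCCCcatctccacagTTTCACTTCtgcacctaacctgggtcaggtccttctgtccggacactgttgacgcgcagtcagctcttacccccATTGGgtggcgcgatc
B2m: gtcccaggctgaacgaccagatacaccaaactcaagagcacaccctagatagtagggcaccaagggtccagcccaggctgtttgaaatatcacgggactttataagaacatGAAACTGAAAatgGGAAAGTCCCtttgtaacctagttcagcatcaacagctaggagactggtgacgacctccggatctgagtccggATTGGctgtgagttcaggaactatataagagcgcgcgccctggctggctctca
Tapbp: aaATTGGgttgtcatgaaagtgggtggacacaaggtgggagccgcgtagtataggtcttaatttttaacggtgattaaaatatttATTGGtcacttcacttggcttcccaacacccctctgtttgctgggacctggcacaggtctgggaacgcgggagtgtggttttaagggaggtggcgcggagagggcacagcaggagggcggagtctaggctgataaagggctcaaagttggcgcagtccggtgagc
Tap1 to Psmb9: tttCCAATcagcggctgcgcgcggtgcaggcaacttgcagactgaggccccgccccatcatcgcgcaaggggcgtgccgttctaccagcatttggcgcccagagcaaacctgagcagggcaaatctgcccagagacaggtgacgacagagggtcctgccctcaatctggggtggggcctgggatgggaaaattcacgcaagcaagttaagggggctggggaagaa

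The patterns were searched on both strands in the 250 bases before the start, allowing overlaps, in 32851 promoters of the same length. A kappaB-like pattern (GGG, any 2 bases, TT, any base, CC), after the sites bound by NF-kappaB, was found in H2-K1 and B2m among the members, and in 4.11% of all promoters. The interferon response pattern (GAAA, any 2 bases, GAAA) was found in B2m and in 2.98% of all promoters, and a shorter form, GAANNGAAA, tried after the stretches had been seen, in H2-K1 and 6.31% of all. The GAS pattern TTCNNNGAA, bound by STAT dimers, was found in Psmb8 alone and in 7.02% of all. CCAAT, the core of the Y box of class I promoters, was found in 5 of the 9 members with a promoter in the table (B2m, H2-K1, Psmb9, Tap1 and Tapbp) and in 33.8% of all. Tap1 and Psmb9 are counted for the same match in their shared stretch. It lies 222 to 218 bases before the start of Tap1 and 8 to 4 before that of Psmb9. For the H2-K1 start shown, the kappaB-like match ran from 111 to 102 bases before it and the shorter interferon pattern from 90 to 82. A second listed H2-K1 start had these matches at 125 to 116 and 104 to 96, and another CCAAT from 6 to 2. In B2m the interferon pattern ran from 139 to 130 and the kappaB-like match from 126 to 117. A match describes letters only and shows no binding.

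In LPS arrays, 4 of the 10 members had values wholly above those of the controls: the heavy chain H2-K1, the transporter subunit Tap1, the loading chaperone tapasin (Tapbp) and the immunoproteasome subunit Psmb10. Their log2 fold changes ran from 0.93 to 1.36. The other 6 overlapped between groups. Over all 41345 rows, 7.74% had every LPS array above every control array and 3.48% every LPS array below; 0 members were wholly below. No member passed a limma adjusted p of 0.05 (Benjamini-Hochberg over all rows), a threshold that 80 rows (0.193%) passed upward and 0 downward. In simulated data, the same fit called 4 of 50 rows raised by 1 log2 unit and 42 of 50 raised by 2. The lack of calls therefore does not show that the members were unchanged. At an unadjusted limma p under 0.05, the same 4 members were higher and 0 were lower, against 4.98% of all rows higher and 1.4% lower. All 10 members lay above background. Of the 10885 genes above background, 1549 were wholly above the controls and 208 wholly below. At the unadjusted threshold, 1102 of the 10885 were higher and 156 lower. All 10 fold changes were above 0, as were those of 56.7% of all genes and 67.7% of genes above background, and the members' median was 0.68, against 0.03 over all genes and 0.12 over genes above background. Leaving out control replicate 2 lowered this median to 0.39; leaving out LPS replicate 3 gave 0.59, and leaving out both gave 0.32.

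The members' counts were also taken without the deviating arrays. Without control replicate 2, 0 members were called (0.128% of all rows higher and 0.0339% lower) and 3 were higher at an unadjusted limma p under 0.05 (4.98% of rows higher, 3.98% lower). The one lost was Tap1, with a limma unadjusted p of 0.0535. Without LPS replicate 3, 0 were called (0.184% of rows higher, 0.0145% lower) and the same 4 members were higher at the unadjusted threshold (4.82% of rows higher, 2.75% lower). Without both arrays, 0 were called (0.368% higher, 0.162% lower) and the same 4 were again higher (5.47% higher, 5.73% lower). Without control replicate 3, Psme2 took the place of Tap1 among the 4.

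**Figure D1:**
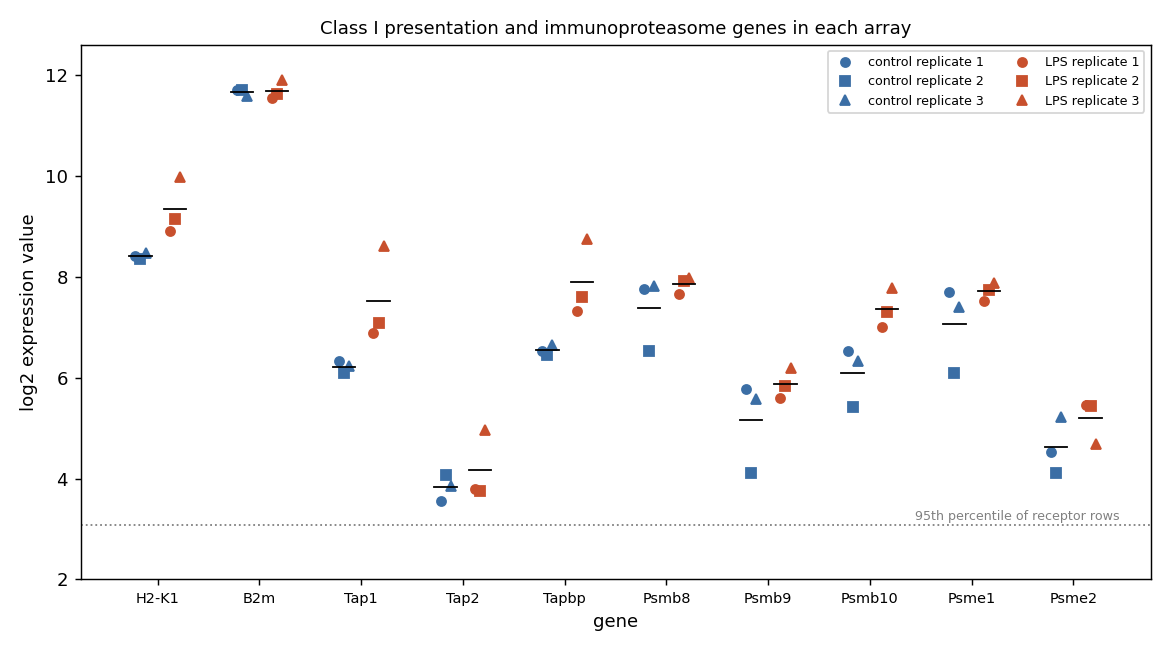
Log2 expression value (vertical axis) of each of the 10 genes (horizontal axis) in the 3 control (blue) and 3 LPS (red) arrays, with the replicate number as marker shape and group means as bars; the dotted line is the background level of 3.09. LPS points lie wholly above control points for H2-K1, Tap1, Tapbp and Psmb10, and control replicate 2 is well below the other controls for Psmb8, Psmb9, Psmb10 and Psme1.

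H2-K1 (transcript cluster 17343710) codes for a classical heavy chain, the peptide-binding part of the class I molecule. Its log2 values were 8.41, 8.35 and 8.48 in control replicates 1 to 3 and 8.90, 9.15 and 9.97 in LPS replicates 1 to 3. The controls were close together and every LPS array lay at least 0.42 above them, with LPS replicate 3 the highest. The group means of 8.41 ± 0.07 and 9.34 ± 0.56 (SD, n = 3) differed by 0.93 (SE 0.28), which is 1.90-fold, with a limma adjusted p of 0.52. It was 0.61 (SE 0.16) without LPS replicate 3 and 0.58 without both arrays. Heavy chain genes are near-identical in parts, and the probes of this row were not compared with them, so signal from other heavy chains may be included.

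B2m (17375373), the invariant light chain that every classical class I molecule needs, did not share this pattern. Its log2 values were 11.71, 11.70 and 11.59 in control arrays, against 11.55, 11.62 and 11.90 after LPS. The groups overlapped, with LPS replicate 3 the highest of the 6 arrays and LPS replicate 1 the lowest. The mean difference of 0.02 (SE 0.15; adjusted p = 1.00 in limma) had a 95% confidence interval from -0.33 to 0.38, and without LPS replicate 3 it was -0.08. These values lie near the top of the table's range, and whether they are compressed there was not tested.

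Tap1 and Tap2 code for the paired subunits of the TAP transporter. Tap1 (17336432) had log2 values of 6.34, 6.08 and 6.23 in control arrays, against 6.89, 7.08 and 8.61 after LPS. All LPS values were higher, and LPS replicate 3 lay 1.63 above the mean of the other LPS arrays. The log2 fold change was 1.31 (2.48-fold, SE 0.44, limma adjusted p = 0.62), and without LPS replicate 3 it was 0.77 (SE 0.17, adjusted p = 0.29). Leaving out the most distant LPS value narrows the spread by itself. Tap2 (17336458) had 3.55, 4.08 and 3.86 in control arrays, against 3.79, 3.75 and 4.97 after LPS. Only LPS replicate 3 exceeded the controls, so that the log2 fold change of 0.34 (SE 0.35, adjusted p = 1.00) became -0.06 without it.

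Tapbp codes for tapasin, which holds empty class I molecules at the transporter until a peptide fits. Its brightest row (17336228) had log2 values of 6.54, 6.44 and 6.64 in control arrays, against 7.33, 7.60 and 8.75 after LPS. The lowest LPS value was 0.69 above the highest control, the widest such gap among the members. The log2 fold change was 1.36 (2.56-fold, SE 0.36, limma adjusted p = 0.44), and 0.88 (SE 0.18) without both deviating arrays. A second Tapbp row, at a lower level, had 3.53, 3.35 and 3.93 in control arrays, against 4.06, 4.13 and 4.32 after LPS, also without overlap, and a log2 fold change of 0.56. The row that names Tapbp together with Zbtb22 overlapped between groups, with 0.09, or -0.19 without LPS replicate 3.

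The immunoproteasome subunits Psmb8, Psmb9 and Psmb10 replace Psmb5, Psmb6 and Psmb7 at the catalytic sites of the 20S core. Psmb10 (17512554) had log2 values of 6.53, 5.42 and 6.33 in control arrays, against 6.9996, 7.30 and 7.77 after LPS. Control replicate 2 was the lowest, but each LPS array also exceeded the other controls by at least 0.47. On the log2 scale the mean difference was 1.26 (2.40-fold, SE 0.34, limma adjusted p = 0.44), and 0.93 (SE 0.25) without control replicate 2. Psmb8 (17336446) had 7.76, 6.53 and 7.82 in control arrays, against 7.65, 7.92 and 7.97 after LPS. Psmb9 (17343789) had 5.77, 4.12 and 5.58 in control arrays, against 5.60, 5.83 and 6.19 after LPS. For both, the low value of control replicate 2 set the control mean: the log2 fold change of Psmb8 was 0.47 (SE 0.35) with it and 0.05 (SE 0.17) without it, and that of Psmb9 was 0.72 (SE 0.44) and 0.20 (SE 0.21).

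Psme1 and Psme2 code for the alpha and beta subunits of PA28, a cap that opens the 20S core. Psme1 (17300548) had log2 values of 7.70, 6.09 and 7.39 in control arrays, against 7.51, 7.73 and 7.88 after LPS. As for Psmb8 and Psmb9, the groups overlapped except for control replicate 2, and the mean difference of 0.65 (SE 0.41; adjusted p = 0.95 in limma) was 0.16 (SE 0.19) without that array. Psme2 (17306705) had 4.53, 4.11 and 5.22 in control arrays, against 5.46, 5.43 and 4.68 after LPS. It was the member in which LPS replicate 3 was the lowest LPS array, and its log2 fold change was 0.57 (SE 0.34, adjusted p = 0.94), which was 0.82 without LPS replicate 3 (adjusted p = 0.66) and 0.31 without control replicate 2. A row naming Psme2 together with 9930111J21Rik1 and 9930111J21Rik2 had a log2 fold change of -0.17.

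**Figure D2:**
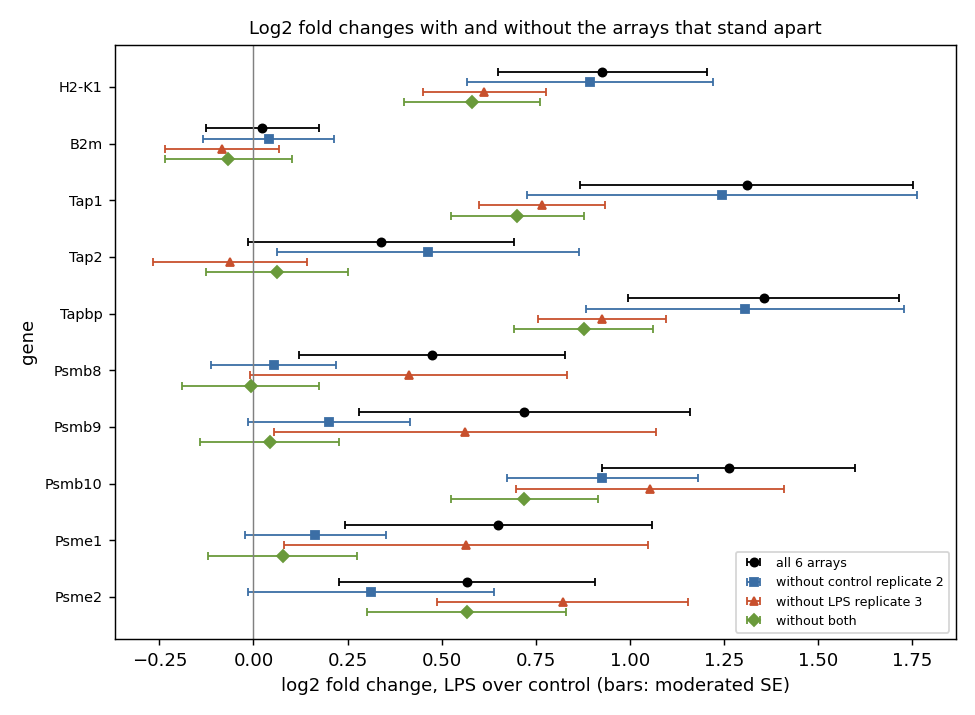
Log2 fold change of LPS over control (horizontal axis, bars are moderated standard errors) for each gene (vertical axis) in 4 fits: all 6 arrays, control replicate 2 left out, LPS replicate 3 left out, or both left out. H2-K1, Tap1, Tapbp and Psmb10 stay between 0.58 and 1.36 in all 4 fits, while Psmb8, Psmb9 and Psme1 lie between -0.01 and 0.20 wherever control replicate 2 is left out.

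The members thus followed 2 arrays differently, a grouping made after the values were seen. H2-K1, Tap1 and Tapbp had control replicate 2 within 0.20 of the other controls and LPS replicate 3 between 0.94 and 1.63 above the other LPS arrays. Psmb8, Psmb9 and Psme1 had control replicate 2 between 1.26 and 1.56 below the other controls and LPS replicate 3 at most 0.47 above the other LPS arrays. Psmb10 had both, at -1.01 and 0.62. B2m, Tap2 and Psme2 fitted neither pattern. Their differences for control replicate 2 and LPS replicate 3 were 0.05 and 0.32, 0.37 and 1.20, and -0.77 and -0.76. The closest profiles among the members, as the root mean square difference over the 6 arrays after subtracting each gene's control mean, were those of Psmb9 and Psme1 (0.10 log2 units) and of Tap1 and Tapbp (0.14). Tap1 and Psmb9, which share the stretch between their starts shown above, differed by 0.73.

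Other lists moved with the same arrays. Over 13 genes of the constitutive 20S core, control replicate 2 had a median difference of -0.96 from the other controls and was the lowest in 12 of 13, while LPS replicate 3 had -0.17. Over 7 genes of peptide loading and trimming, such as the chaperones Calr and Canx, control replicate 2 had 0.36 and was the lowest in 0 of 7, while LPS replicate 3 had 0.66 and was the highest LPS array in 7 of 7. Members had medians of -0.48 and 0.55. Control replicate 2 was the lowest control in 8 of 10 members and LPS replicate 3 the highest LPS array in 9 of 10. Over genes above background the medians were -0.36 and 0.08. There control replicate 2 was the lowest control in 71.3% and LPS replicate 3 the highest LPS array in 45.2%. The members' share for control replicate 2 was thus near that of genes above background. The part of these array differences in the fold changes was measured by leaving the arrays out, and their source was not tested.

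**Figure D3:**
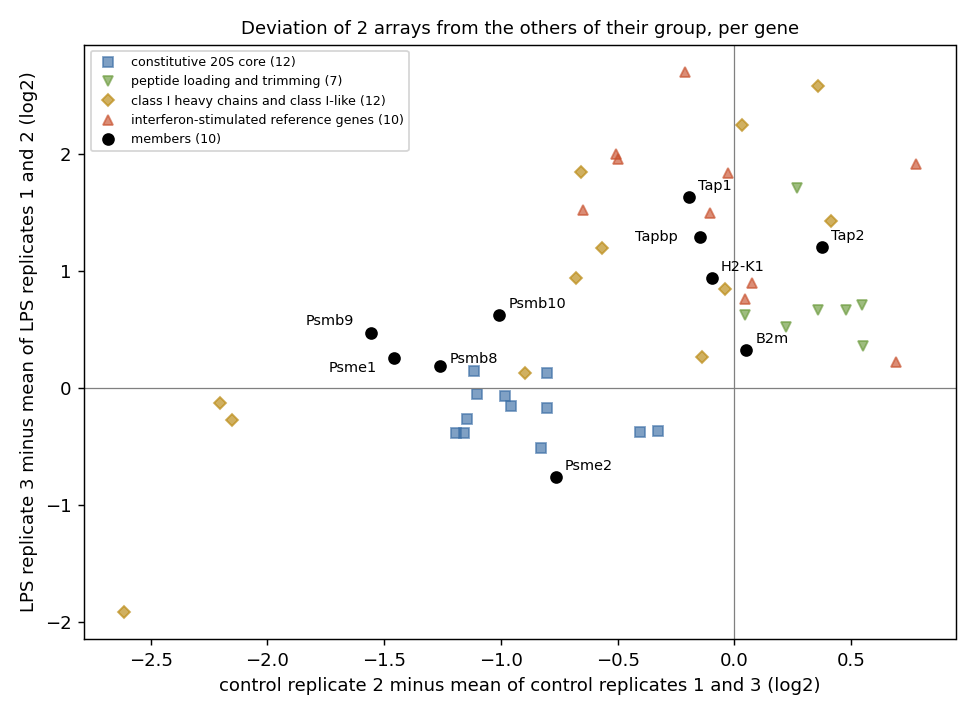
For each gene above background, the log2 difference of control replicate 2 from the mean of the other controls (horizontal axis) and of LPS replicate 3 from the mean of the other LPS arrays (vertical axis). Black points are the 10 members and coloured points 4 lists of related genes; Psmb8, Psmb9, Psmb10 and Psme1 lie on the left, toward the constitutive core subunits, and Tap1, Tapbp and H2-K1 lie near 0 horizontally and between 0.94 and 1.63 vertically.

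Within each array, every immunoproteasome subunit was set against the constitutive subunit whose place it takes; levels of 2 rows cannot be compared, so only the change of the difference is read. Psmb10 minus Psmb7 was -2.28, -2.40 and -2.17 in control arrays, against -1.80, -1.80 and -0.66 after LPS. The difference was greater in every LPS array, by 0.86 on average (exact permutation p = 0.10, two-sided, adjusted p = 0.15 over 3 pairs), or 0.48 without LPS replicate 3. Psmb8 minus Psmb5 was 1.09, 0.98 and 1.18 in control arrays, against 0.79, 0.64 and 0.95 after LPS, so that it was smaller in every LPS array, by -0.29 on average (exact permutation p = 0.10, adjusted p = 0.15). Psmb9 minus Psmb6 overlapped between groups, with a mean change of 0.39 (exact permutation p = 0.30), or 0.14 without LPS replicate 3. With 3 arrays against 3 the test cannot give a p below 0.10. The spread of these differences in the controls (SD 0.10 for Psmb8, 0.24 for Psmb9 and 0.12 for Psmb10) was smaller than that of the immunoproteasome subunits alone (0.73, 0.90 and 0.59). In LPS arrays it was larger for Psmb9 and Psmb10 (SD 0.43 and 0.66, against 0.30 and 0.39 alone). For Psmb8 it was 0.15 against 0.17 alone.

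**Figure D4:**
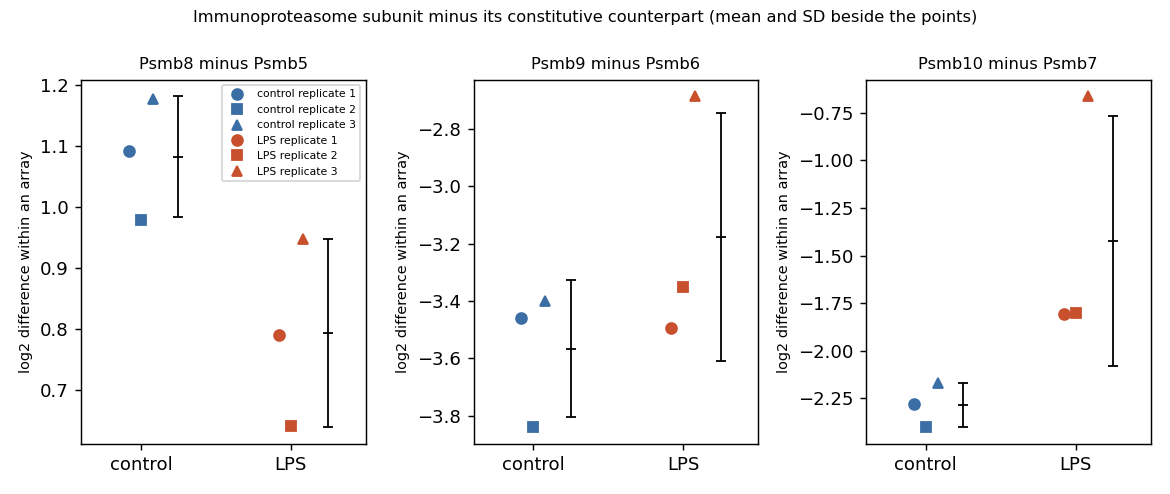
Log2 difference within each array (vertical axis, a separate scale in each panel) between an immunoproteasome subunit and its constitutive counterpart in control and LPS arrays (horizontal axis), with mean and SD (n = 3) beside the points. The LPS points are all higher for Psmb10 minus Psmb7, all lower for Psmb8 minus Psmb5, and mixed with the controls for Psmb9 minus Psmb6.

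The constitutive counterparts had log2 fold changes of 0.76 (SE 0.32, limma adjusted p = 0.79) for Psmb5, 0.33 for Psmb6 and 0.40 for Psmb7, which were 0.39, -0.05 and 0.12 without control replicate 2. Psmb5 had every LPS array above every control array. So had 4 of the 13 core genes with a row, Psmb5 included, against 7.74% of all rows and 1549 of 10885 genes above background. Among the 4, Psma5 lay below background, with a gap of 0.0032 between its groups. The gaps were 0.0107 for Psma6, 0.0680 for Psma3 and 0.19 for Psmb5. In 0 of the 13 every LPS array lay below, against 3.48% of all rows and 208 of 10885 genes above background. Of the 13 genes of the constitutive core with a row, 0 were called, 2 were higher at an unadjusted p under 0.05 (Psma6 at 0.50 and Psma3 at 0.43; 4.98% of all rows) and the median was 0.21. Without control replicate 2 the median was -0.05 and neither gene was under 0.05 (limma unadjusted p = 0.10 and 0.13). Of 9 other activator and assembly genes 0 were called, against 0.193% of all rows. The alternative cap Psme4 (PA200) was the 1 with an unadjusted p under 0.05, at 0.64 (SE 0.20, adjusted p = 0.56). Of 6 cytosolic peptidases, which trim or destroy peptides, and 7 genes of peptide loading and trimming, 0 were called in limma and 0 had an unadjusted p under 0.05; Tpp2 and Npepps had 0.20 and 0.38, and Calr and Canx 0.15 and -0.18. Without control replicate 2 these were 0.04, 0.08, 0.33 and -0.07, and the loading and trimming genes Erap1 and Uggt1, named after their values were seen, had limma unadjusted p of 0.039 and 0.031. Without LPS replicate 3, Calr and Canx had -0.09 and -0.41.

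Other class I heavy chains and class I-like genes gave a mixed picture. Of 27 listed, 18 had a row of their own and 12 lay above background; H2-D1 was among those read only together with other genes and is not reported. None of the 18 was called in limma, against 0.193% of all rows. At an unadjusted limma p under 0.05, 4 were higher and 0 lower, against 4.98% and 1.4% of all rows. The median was 0.10, against 0.03 over all genes and 0.12 over genes above background. H2-M2, a nonclassical heavy chain, had log2 values of 3.14, 2.93 and 2.66 in control arrays, against 6.41, 6.33 and 8.62 after LPS. Its controls lay at or near background while each LPS array was at least 3.19 above them, and 2 of the 3 controls were below the background level of 3.09. With those arrays raised to that level, the observed LPS mean was at least 16.2-fold higher. That bound covers the background level only and not the spread of the arrays. The fitted log2 difference of 4.21 (SE 0.60, 95% confidence interval from 2.78 to 5.64), which is no bound, did not pass the threshold (limma adjusted p = 0.093). Without LPS replicate 3 it passed at 3.46 (SE 0.19, adjusted p = 0.0077), as it did without both deviating arrays, when fewer rows were tested and with array weights. That array held the most distant LPS value, and leaving it out narrows the spread by itself. H2-M2 did not pass in the other 10 of 16 alternatives, with adjusted p of 0.34 under the replicate block, 0.59 in the unmoderated fit and 0.14 to 0.36 when any other single array was left out. H2-T23, which codes for the Qa-1 molecule that presents leader peptides to NK receptors, had a control mean of 3.98 ± 0.38 and an LPS mean of 5.88 ± 1.07 (SD, n = 3), a difference of 1.91 with a limma adjusted p of 0.46. H2-Q4 and H2-M3 had 1.62 (adjusted p = 0.40) and 0.68 (adjusted p = 0.69), also without overlap between groups. Without LPS replicate 3 the differences were 1.29 for H2-T23, 1.14 for H2-Q4 and 0.40 for H2-M3, and without control replicate 2 H2-M3 had a limma unadjusted p of 0.063.

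Among 11 genes with a row that code for regulators of class I transcription, 0 were called in limma, against 0.193% of all rows. At an unadjusted limma p under 0.05, 4 were higher, against 4.98% of all rows. Irf1, an interferon-induced activator of class I and immunoproteasome promoters, had log2 values of 4.55, 4.39 and 4.64 in control arrays, against 5.41, 5.68 and 5.84 after LPS. Its LPS values were close together, with LPS replicate 3 only 0.29 above the others, and the log2 fold change was 1.12 (SE 0.16, adjusted p = 0.10); it passed the threshold when only rows with 1 symbol or 1 row per gene were tested (adjusted p = 0.038 and 0.035) and with array weights (0.049), but in none of the other 13 alternatives, with 0.40 under the replicate block, 0.41 unmoderated, 0.24 with an intensity trend and 0.14 to 0.46 with 1 array left out. Irf9 and Stat2, partners in the factor that carries type I interferon signals to the nucleus, had 1.44 and 1.69, with LPS replicate 3 higher than the other LPS arrays by 1.33 and 2.17. The NF-kappaB subunit Rela had 0.61, with LPS replicate 3 higher by 0.69. Without that array the differences were 1.00 for Irf9, 0.96 for Stat2 and 0.38 for Rela. Nlrc5, the coactivator of class I genes, had 5.13, 4.76 and 5.45 in control arrays, against 5.06, 5.69 and 6.11 after LPS, which overlapped (log2 fold change 0.51, SE 0.30, adjusted p = 0.94; 0.26 without LPS replicate 3). For comparison, 4 of the 11 interferon-stimulated genes rose in limma, Rsad2 (5.36, adjusted p = 0.0012), Cmpk2 (5.04, adjusted p = 0.037), Oasl2 (3.72, adjusted p = 0.044) and Gbp3 (3.07, adjusted p = 0.030). Over all rows, 0.193% were called higher. The number of the 11 called was 9 without LPS replicate 3 (0.184% of all rows higher) and 1 without control replicate 2 (0.128%). LPS replicate 3 was picked by its high values over these genes. Only Rsad2 was also called in each fit that left out 1 array; the other 3 were lost in every such fit but the one without LPS replicate 3.

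The 6 genes whose profile over the 6 arrays was most like the median profile of the members, of 10875 genes above background, were Lrp12, Sla, Trim25, Neu1, Psmd11 and Ptpn1, with root mean square differences from 0.07 to 0.10 log2 units. The members' median profile, relative to each gene's control mean, was 0.08, -0.32 and 0.17 in control arrays, against 0.47, 0.71 and 1.09 after LPS. Trim25, a ubiquitin ligase of the antiviral RNA-sensing pathway, had log2 values of 7.43, 6.93 and 7.33 in control arrays, against 7.65, 7.80 and 8.23 after LPS. Psmd11, a lid subunit of the 26S proteasome, had 8.44, 7.82 and 8.32 in control arrays, against 8.72, 9.03 and 9.25 after LPS. In both, as in the median profile, control replicate 2 was the lowest and LPS replicate 3 the highest array. Control replicate 1 lay above control replicate 3 in both genes and below it in the median profile. Lrp12, the closest of the 6, and Sla, Neu1 and Ptpn1 had all 6 arrays in the same order as the median profile.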

How the data were processed

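The authors deposited log2 expression values per transcript cluster, for which the submitters' processing notes name Expression Console; its version, background correction, normalization and summarization are not given in the sources used here. The log2 scale was read from the values. RNA was isolated with TRIzol and labelled by the GeneChip WT PLUS protocol, per the labels' protocols. Genes were named from platform annotation: 23521 of 41345 rows had 1 symbol, 1814 several and 16010 none. LPS was compared with control in limma 3.58.1 (R 4.3.3; lmFit and eBayes, no trend, no filter, no further normalization), tested on simulated data, with Benjamini-Hochberg adjustment over all rows. Errors of fold changes are moderated SE. The number of arrays limits precision. Subunit differences used an exact permutation test. Alternatives were other normalizations, row filters, variance models, array weights, a replicate block and left-out arrays. Beyond the members, named genes were called list members, up to 4 per list with the lowest p (the 2 brightest where none was under 0.05), 7 genes set by name, of which H2-D1 had no row of its own, and the 6 closest profiles. Members and lists were chosen with earlier results of these data known.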

Additional observations from a re-analysis of the deposited data

How the results depend on the processing

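None of the 10 members was called in limma under any of the 16 alternatives; at an unadjusted p under 0.05 the number was 3 or 4 in each. The median member fold change (0.68) ran from 0.39 to 0.95 with 1 array left out and was 0.32 when both deviating arrays were omitted. The number of rows called higher (80) was 132 with array weights, 1 in the unmoderated fit, 15 to 76 with 1 array left out and 152 without both arrays; rows called lower (0) numbered 0 to 14 with 1 array left out and 67 without both. Over rows above background, deviations from the group means correlated at 0.15, -0.31 and -0.31 between same-numbered arrays. The highest correlation was 0.36, between control replicate 2 and LPS replicate 3. With 3 arrays per group, and control replicate 2 and LPS replicate 3 deviating as described, these values cannot show whether the arrays were paired. With the replicate block 7 rows and 0 members were called. Signs turned for B2m (-0.0306 after quantile normalization, -0.0669 with both arrays left out, -0.0149 without control replicate 3), Psmb8 (-0.0072 with both left out) and Psme2 on its shared row (-0.17). With 1 array left out the fold change of B2m ran from -0.0837 to 0.0939 and that of Tap2 from -0.0623 to 0.5489, both lowest without LPS replicate 3. Among pathway genes, whose alternatives were added after the data were seen, Calr ran from -0.0856 to 0.3321 and Psmb6 from -0.0521 to 0.5808. The pair differences kept their direction with 1 array left out, from -0.37 to -0.21 for Psmb8, 0.14 to 0.55 for Psmb9 and 0.48 to 1.05 for Psmb10. The causes were not tested beyond leaving arrays out.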
